A study of Homo sapiens with 6 samples.

Results

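The 9 genes described here are the receptors EGFR, ERBB2 and ERBB3 and the ligands AREG, EREG, HBEGF, TGFA, EPGN and BTC. They were chosen by gene symbol, each matched 1 row, and they are 9 of 58825 genes in the expression table. RNA sequencing was done in T24, a long-used cell line of human urinary bladder cancer, in which 3 libraries carried the control hairpin shNC-1 (genotype WT in the labels) and 3 carried shDLGAP5-1, a hairpin against DLGAP5, whose product binds spindle microtubules. All 6 libraries came from the same line, grown in serum-containing medium, and the labels name no drug, added ligand or time point. Each group rests on 1 hairpin, so an effect of DLGAP5 loss and an effect particular to that hairpin cannot be told apart. The question of the study is what DLGAP5 does in bladder cancer cells, and the comparison here asks how the transcripts of this receptor system differ between the hairpins.

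EGFR, ERBB2 and ERBB3 are receptor tyrosine kinases of the cell surface that act as pairs. EGFR binds TGFA, AREG, EREG, HBEGF, BTC and EPGN, ERBB3 binds neuregulins and has little kinase activity of its own, and ERBB2 has no known ligand and serves as a partner for the others. The ligands are made as membrane-anchored precursors and are cut free by metalloproteases, after which the receptors signal through RAS and ERK. In urothelium EGFR marks basal cells, and many bladder carcinomas carry high EGFR or ERBB2.

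Values of single libraries are given throughout in the order of replicates 1, 2 and 3, in FPKM, fragments counted per kilobase and scaled by library size. DLGAP5 itself read 33.0, 32.7 and 29.7 FPKM with the control hairpin. With shDLGAP5-1 it read 5.03, 4.0 and 7.51 FPKM, so the groups were separate in the direction of their labels. Of 12714 genes tested 24.8% passed the threshold, an adjusted p under 0.05 in limma's test on log2(FPKM + 1). Of urothelial and epithelial genes the line expressed the keratins KRT7 (566 to 855.3 FPKM), KRT8 (266 to 481 FPKM), KRT18 (237 to 386 FPKM) and KRT19 (10.6 to 20.9 FPKM). The transcription factors PPARG (9.81 to 14.3 FPKM) and FOXA1 (3.44 to 5.27 FPKM) were present too. KRT20 was listed at 0, and GATA3 (at most 0.544 FPKM), CDH1 (at most 0.167 FPKM) and the uroplakin UPK2 (at most 0.201 FPKM) were near 0. The keratins KRT5 and KRT17 were highest in shNC-1 replicate 2, at 3.95 and 6.38 FPKM. Elsewhere KRT5 was at most 0.373 FPKM, with 0 for every shDLGAP5-1 library, and KRT17 at most 1.70 FPKM. Another uroplakin, UPK3A, had 2.28 FPKM in shDLGAP5-1 replicate 3 but 0 in all other libraries. Among 14 leukocyte markers the summed level was 12.9 to 35.1 FPKM in 5 libraries and 780.7 FPKM in shDLGAP5-1 replicate 3, with CD3E and MS4A1 listed at 0 throughout. LYZ alone stood at 686 FPKM in that library, and not every marker was raised there. SPI1 was at 20.7 FPKM there and at most 0.567 FPKM elsewhere. CD14 was at 0.482 FPKM there, against 0.536 and 0.468 FPKM in shDLGAP5-1 replicates 1 and 2 and 0.232, 0.128 and 0.132 FPKM in shNC-1. Of these markers 4 were tested, and 1 passed, CD74, which was higher in all shDLGAP5-1 libraries. It read 3.00, 2.76 and 2.51 FPKM in shNC-1 and 10.5, 11.2 and 14.8 FPKM in shDLGAP5-1. Its log2 change was 1.80 (limma adjusted p = 0.000912). Short and long transcripts also differed between libraries, given here as the median log2 deviation from the control mean. Genes with a transcript over 5000 bases stood at 0.07, 0.03 and −0.11 in shNC-1 and at −0.19, −0.03 and 0.11 in shDLGAP5-1. Genes whose longest transcript was under 1500 bases stood at −0.07, −0.03 and 0.11 in shNC-1 and at 0.30, 0.12 and 0.08 in shDLGAP5-1.

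HBEGF fell and TGFA rose in shDLGAP5-1 cells, EGFR and ERBB2 were lower without passing the test, and ERBB3, AREG and EREG overlapped between the groups. HBEGF went from 23.6 ± 0.654 to 10.5 ± 0.607 FPKM and TGFA from 4.20 ± 0.306 to 7.36 ± 0.183 FPKM (SD, n = 3 each). EPGN and BTC were too low to be tested. So 7 of 9 members were tested, of which 1 rose, 1 fell and 5 did not pass. Over all genes 15.3% rose and 9.52% fell, so these counts are near the background and say nothing about the family as a whole. In 4 of the 7 tested members the groups did not overlap, against 43.9% of all genes tested.

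**Figure D1:**
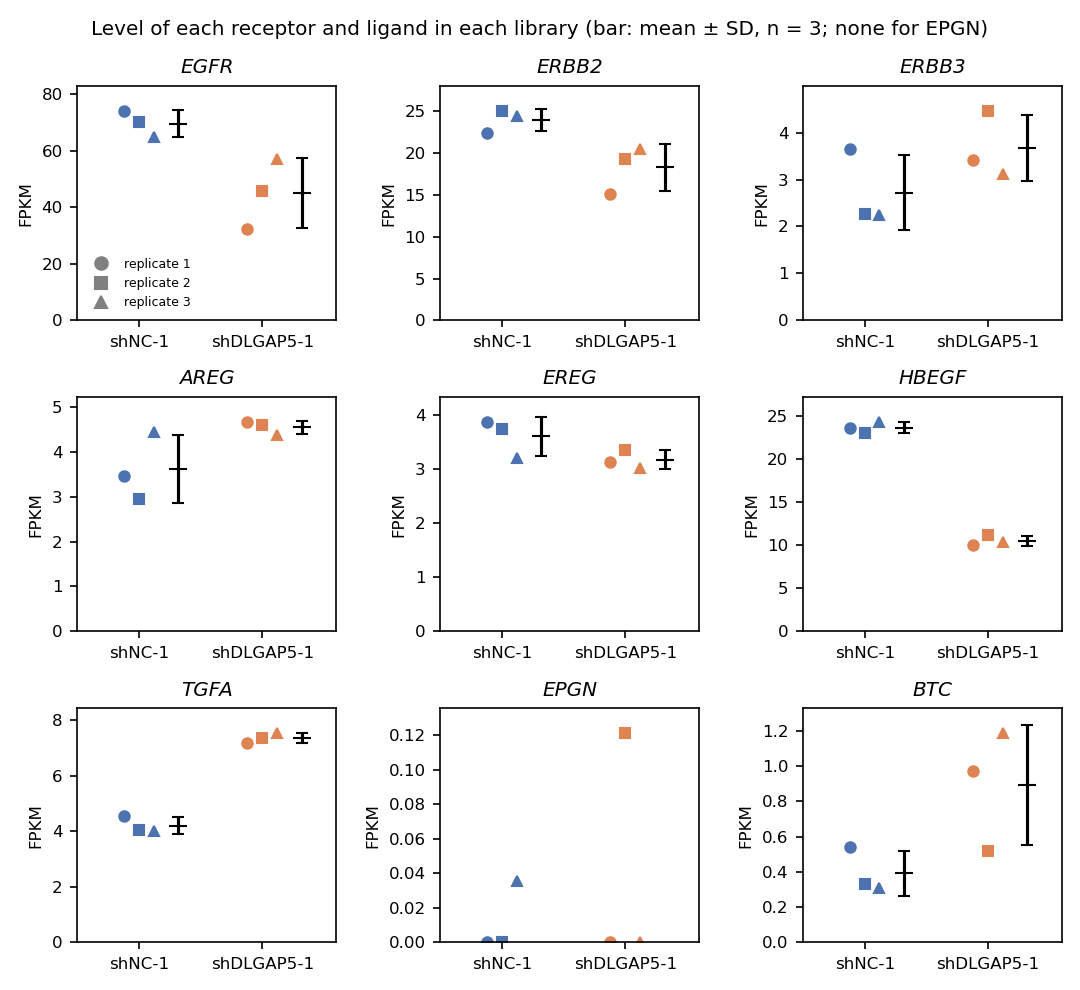
FPKM of each of the 9 genes in each library, by hairpin, with replicates 1 to 3 as circle, square and triangle and the mean ± SD (n = 3) as a black bar, except for EPGN, which is listed at 0 in 4 libraries. The shDLGAP5-1 libraries lie at 9.99 to 11.2 FPKM for HBEGF, all under the shNC-1 libraries, and at 7.17 to 7.53 FPKM for TGFA, all above them.

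The promoters of HBEGF, which fell, and of EGFR, which did not pass the test, are shown as those of the leading ligand and the leading receptor by level. RefSeq (GRCh38.p14) sequence before the start site is given 5′ to 3′ on the gene's strand, without bases that GENCODE release 29 places in an exon. HBEGF is shown at chr5:140346632-140346853 (minus strand, 222 bases) and EGFR at chr7:55018767-55019016 (plus strand, 250 bases, the first of its 2 RefSeq starts). Capitals mark the GC box GGGCGG on either strand.
HBEGF: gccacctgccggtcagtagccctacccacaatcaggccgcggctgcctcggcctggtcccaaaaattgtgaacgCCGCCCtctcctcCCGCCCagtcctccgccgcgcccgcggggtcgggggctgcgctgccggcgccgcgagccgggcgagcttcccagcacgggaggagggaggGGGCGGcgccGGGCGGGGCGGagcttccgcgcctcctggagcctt
EGFR: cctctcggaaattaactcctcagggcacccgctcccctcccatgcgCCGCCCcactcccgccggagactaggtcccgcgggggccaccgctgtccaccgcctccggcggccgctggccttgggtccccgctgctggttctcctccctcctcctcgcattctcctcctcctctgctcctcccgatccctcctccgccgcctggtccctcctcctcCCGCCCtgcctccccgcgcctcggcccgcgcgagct
The HBEGF stretch is 76.1% and the EGFR stretch 73.6% G and C, and they hold 5 and 2 GC boxes, overlapping matches counted. TGFA, which rose, has 3 GC boxes in the 250 bases before its first listed RefSeq start and none before its other start. Of 35116 RefSeq windows of 250 bases 42.6% hold at least 1. The AP-1 motif TGANTCA, which 6.57% of windows hold, the E2F motifs TTTCCCGC or TTTGGCGC (1.93%) and the TATA motif TATAAA (10.7%), each searched on both strands, do not occur in the windows of HBEGF, of TGFA or of this EGFR start. The other EGFR start has 2 AP-1 motifs, TGAGTCA and TGACTCA, 232 and 136 bases before it. It also has 2 TATAAA, 146 and 36 bases before it. ERBB2 has 1 match to TGANTCA at 222 bases, TGATTCA, with T in the place of N. TATAAA also occurs 29 bases before the start of AREG, 32 before that of EREG and 29 before that of EPGN. RefSeq windows matched 8 of the 9 genes, with ERBB3 the exception.

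EGFR, the receptor for all 6 ligands here, was the most abundant member. It stood at 73.9, 70.0 and 64.6 FPKM in the shNC-1 libraries, against 32.2, 45.8 and 57.1 FPKM in the shDLGAP5-1 libraries. Every shDLGAP5-1 library was under every shNC-1 library, but the shDLGAP5-1 libraries spread widely, with replicate 1 lowest and replicate 3 highest. Means were 69.5 ± 4.67 and 45.0 ± 12.4 FPKM (SD, n = 3 each), a log2 change of −0.65 (standard error, SE, 0.20, 95% interval −1.12 to −0.18) that missed the threshold (limma adjusted p = 0.0523). Permuting the libraries exactly (two-sided) gave p = 0.1, and 3 against 3 cannot give less. Without shDLGAP5-1 replicate 3, the library with leukocyte transcripts, the log2 fold change was −0.84 and passed (adjusted p = 0.0205), and without shDLGAP5-1 replicate 1 it was −0.43 (adjusted p = 0.0643). It also passed with median-ratio scaling (−0.77, adjusted p = 0.0218) and with the length trend removed (−0.60, adjusted p = 0.0153). The longest EGFR transcript has 9821 bases, and within each group the libraries' order in EGFR is also their order in the long-transcript deviation given above, whose part in the EGFR values was not tested beyond that correction. EGFR (ENSG00000146648) spans 55019017 to 55211628 on the plus strand of chromosome 7 in the table's GRCh38 coordinates, and its antisense neighbour EGFR-AS1 was listed at 0. In bulk RNA, fewer cells with a transcript and less of it per cell cannot be told apart.

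ERBB2, the partner receptor without a ligand, was lower by a smaller amount. It was at 22.4, 25.02 and 24.4 FPKM in the shNC-1 libraries, against 15.1, 19.3 and 20.5 FPKM in the shDLGAP5-1 libraries. The groups did not overlap, with the same lowest and highest shDLGAP5-1 libraries as for EGFR. The mean went from 23.9 ± 1.36 to 18.3 ± 2.81 FPKM (SD, n = 3 each), a log2 change of −0.38 (SE 0.13, limma adjusted p = 0.0802, exact permutation p = 0.1). It passed with median-ratio scaling (−0.50, adjusted p = 0.0260) and with the length trend removed (−0.37, adjusted p = 0.0356). ERBB2 (ENSG00000141736) lies at 39687914 to 39730426 on the plus strand of chromosome 17. It overlaps MIEN1 (at most 14.7 FPKM) and PGAP3 (at most 5.90 FPKM) on the other strand, and whether strand was used in counting is not given in the sources used here.

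ERBB3, the neuregulin receptor with a weak kinase, was present at a low level in both groups. Its values were 3.64, 2.26 and 2.25 FPKM in shNC-1 and 3.42, 4.46 and 3.12 FPKM in shDLGAP5-1, so the groups overlapped. The log2 fold change was 0.34 (95% interval −0.10 to 0.78, limma adjusted p = 0.226). Among the receptors EGFR made up 72.2% ± 1.58 of the summed FPKM in shNC-1 and 66.7% ± 3.71 in shDLGAP5-1, ERBB2 24.95% ± 2.25 and 27.6% ± 2.21, and ERBB3 2.81% ± 0.725 and 5.68% ± 1.57 (SD, n = 3 each). The gene (ENSG00000065361) lies at 56076799 to 56103505 on the plus strand of chromosome 12.

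HBEGF, a ligand that binds heparin and both EGFR and ERBB4, had the clearest difference of the family. It was at 23.6, 23.0 and 24.3 FPKM in the shNC-1 libraries, against 9.99, 11.2 and 10.3 FPKM in the shDLGAP5-1 libraries. The groups were far apart beside their spread, a coefficient of variation of 2.77% and 5.79%. The mean was 55.6% lower, with a log2 change of −1.10 (SE 0.10, 95% interval −1.33 to −0.87, limma adjusted p = 0.00103, exact permutation p = 0.1). HBEGF kept its call in all 16 alternative fits, at −1.21 to −1.07. By p it ranked 103 of 12714 genes. In shDLGAP5-1 replicate 3, where leukocyte markers were high, it stood between the other replicates. The gene (ENSG00000113070) lies at 140332843 to 140346603 on the minus strand of chromosome 5, and no other entry of the table overlaps it.

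TGFA, the ligand long known from carcinoma cells that feed their own EGFR, moved the other way. It was at 4.55, 4.03 and 4.02 FPKM in shNC-1, against 7.17, 7.37 and 7.53 FPKM in shDLGAP5-1. All shDLGAP5-1 libraries were higher, and within each group the libraries were close together. The mean was 75.1% higher, and the log2 fold change was 0.69 (SE 0.11, 95% interval 0.43 to 0.94, limma adjusted p = 0.00618, exact permutation p = 0.1). TGFA also kept its call in all 16 alternative fits, at 0.58 to 0.80, with adjusted p up to 0.0425. The gene (ENSG00000163235) lies at 70447284 to 70554193 on the minus strand of chromosome 2.

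AREG and EREG, ligands of lower affinity that are neighbours on chromosome 4, did not pass. AREG was at 3.46, 2.94 and 4.44 FPKM in shNC-1, against 4.66, 4.59 and 4.38 FPKM in shDLGAP5-1. A single control library, replicate 3, reached the shDLGAP5-1 range. Its log2 fold change was 0.28 (95% interval −0.06 to 0.62, limma adjusted p = 0.205). The longest AREG transcript has 1240 bases, and with the length trend removed the log2 fold change was 0.11 (adjusted p = 0.529). EREG was at 3.86, 3.74 and 3.20 FPKM in shNC-1, against 3.13, 3.35 and 3.01 FPKM in shDLGAP5-1, again with overlap. Its log2 fold change was −0.14 (95% interval −0.42 to 0.14, limma adjusted p = 0.418), so a change of the size seen in HBEGF or TGFA lies outside the interval of EREG.

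BTC and EPGN were at the edge of measurement. BTC, betacellulin, had 0.540, 0.329 and 0.310 FPKM in shNC-1 and 0.971, 0.518 and 1.19 FPKM in shDLGAP5-1, and reached 1 FPKM in 1 library only. With no filter on low values its log2 fold change was 0.43 (limma adjusted p = 0.224). EPGN, epithelial mitogen, was listed at 0 in 4 libraries, at 0.0354 FPKM in shNC-1 replicate 3 and at 0.121 FPKM in shDLGAP5-1 replicate 2. No direction can be read from values this low.

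EPGN, EREG, AREG and BTC lie within 486051 bases of chromosome 4. EPGN (ENSG00000182585) spans 74308473 to 74315307, EREG (ENSG00000124882) spans 74365145 to 74388749, AREG (ENSG00000109321) 74445136 to 74455005, all on the plus strand, and BTC (ENSG00000174808) 74744759 to 74794523 on the minus strand. On the EPGN side the neighbouring protein-coding genes are MTHFD2L and then CXCL2, a neutrophil chemokine. CXCL2 fell by 1.82 in log2 (limma adjusted p = 0.000327) and CXCL3 by 2.22 (adjusted p = 0.000145), while MTHFD2L, at −0.13 (adjusted p = 0.700), EREG and AREG did not pass. Farther off in the same chemokine cluster CXCL5 fell by 1.65 (adjusted p = 0.000380), CXCL8 by 1.85 (0.00115) and CXCL1 by 0.997 (0.00275). CXCL6 was the only tested chemokine of the cluster that rose, by 1.30 (adjusted p = 0.00184), from a mean of 5.42 to 14.8 FPKM. Whether any chemokine differed in its change from the ligands was not tested. These chromosome 4 neighbours were chosen after their values were seen.

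HBEGF took a smaller share and TGFA a larger share of the ligand transcripts in each library with shDLGAP5-1 than in any control library. HBEGF was 65.6%, 67.5% and 66.9% of the summed FPKM of the 6 ligands with the control hairpin and 38.5%, 41.2% and 39.1% with shDLGAP5-1. TGFA was 12.6%, 11.9% and 11.1% in shNC-1 and 27.7%, 27.2% and 28.5% in shDLGAP5-1. AREG took 10.2% ± 1.86 in shNC-1 and 17.1% ± 0.739 in shDLGAP5-1, and EREG 10.2% ± 1.19 and 11.95% ± 0.497 (SD, n = 3 each). HBEGF remained the leading ligand in every library. All 6 ligands summed to 35.4 ± 1.25 FPKM with the control hairpin and to 26.5 ± 0.605 FPKM with shDLGAP5-1 (SD, n = 3 each). Shares and sums follow from the values already given and were not tested on their own.

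**Figure D2:**
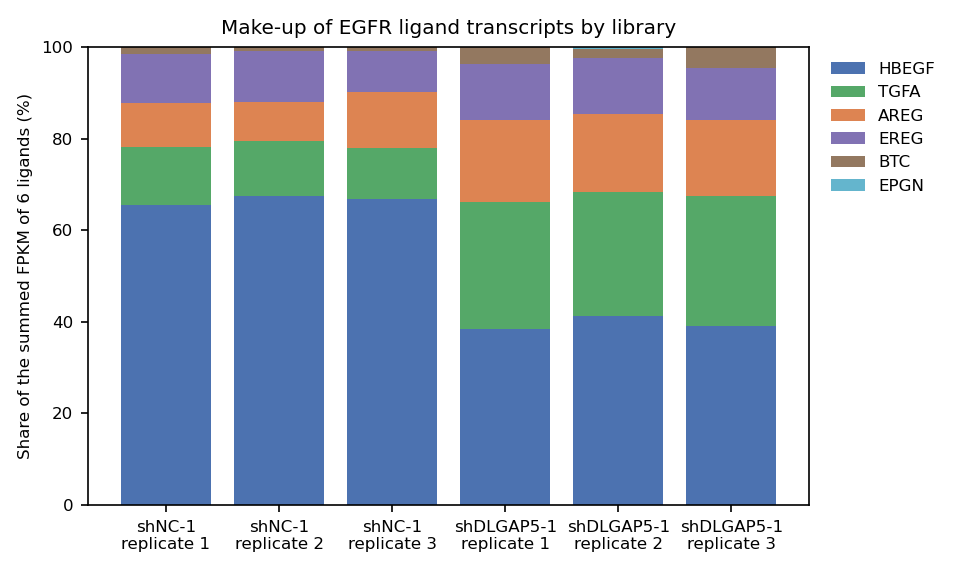
Share of each ligand in the summed FPKM of the 6 EGFR ligands, 1 bar per library, on an axis from 0 to 100%. HBEGF fills 65.6% to 67.5% of the shNC-1 bars and 38.5% to 41.2% of the shDLGAP5-1 bars, and TGFA 11.1% to 12.6% and 27.2% to 28.5%.

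In the order of levels, which FPKM allow because they are per length, EGFR came first in both groups. In shNC-1 ERBB2 (23.9 ± 1.36 FPKM) and HBEGF (23.6 ± 0.654 FPKM) did not differ beyond their spread. Below them TGFA (4.20 ± 0.306 FPKM), AREG (3.61 ± 0.762 FPKM), EREG (3.60 ± 0.354 FPKM) and ERBB3 (2.72 ± 0.801 FPKM) formed a group whose neighbours overlapped (SD, n = 3 each). In shDLGAP5-1 ERBB2 (18.3 ± 2.81 FPKM), HBEGF (10.5 ± 0.607 FPKM), TGFA (7.36 ± 0.183 FPKM) and AREG (4.54 ± 0.147 FPKM) stood apart from each other. AREG overlapped ERBB3 (3.67 ± 0.700 FPKM), which overlapped EREG (3.17 ± 0.172 FPKM). BTC and EPGN were lowest in both groups.

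Ratios between members of like role were compared for 3 pairs, as log2 of (FPKM + 1) of the first over that of the second. HBEGF to TGFA was 2.15, 2.25 and 2.33 in shNC-1 and 0.43, 0.54 and 0.41 in shDLGAP5-1. The difference of −1.79 was far larger than the spread in either group, and its exact two-sided permutation p was 0.1, the smallest possible, and 0.2 adjusted over the 3 pairs. EGFR to ERBB2 was 1.68, 1.45 and 1.37 in shNC-1 and 1.04, 1.21 and 1.43 in shDLGAP5-1, a difference of −0.27 (exact permutation p = 0.2, adjusted 0.2). AREG to EREG was −0.12, −0.27 and 0.37 in shNC-1 and 0.45, 0.36 and 0.42 in shDLGAP5-1, a difference of 0.42 (exact permutation p = 0.2, adjusted 0.2). The last 2 pairs overlapped between groups.

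Of the 6 other EGF family genes, NRG1 and NRG2, neuregulins that bind ERBB3 and ERBB4, were tested, and they moved in opposite directions. NRG1 was at 8.26, 8.15 and 5.46 FPKM in shNC-1, against 2.97, 2.15 and 3.75 FPKM in shDLGAP5-1. It fell by 1.07 on the log2 scale (SE 0.21, limma adjusted p = 0.0121). NRG1 kept its call in every fit without 1 library, with adjusted p up to 0.0492, close to the threshold. NRG2 was at 3.93, 2.74 and 3.21 FPKM in shNC-1, against 4.71, 7.59 and 6.28 FPKM in shDLGAP5-1. It rose by 0.73 (SE 0.18, limma adjusted p = 0.0285), a call lost without shNC-1 replicate 2 (adjusted p = 0.102), shNC-1 replicate 3 (0.0767), shDLGAP5-1 replicate 2 (0.0840) or shDLGAP5-1 replicate 3 (0.0589). It was also lost with columns brought to the same total (0.0676) and with no filter on low values (0.0868). With a replicate block in the fit it was lost too (0.0829, or 0.0651 with the length trend also removed). EGF, ERBB4, NRG3 and NRG4 were under 1 FPKM in 5 or more libraries.

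**Figure D3:**
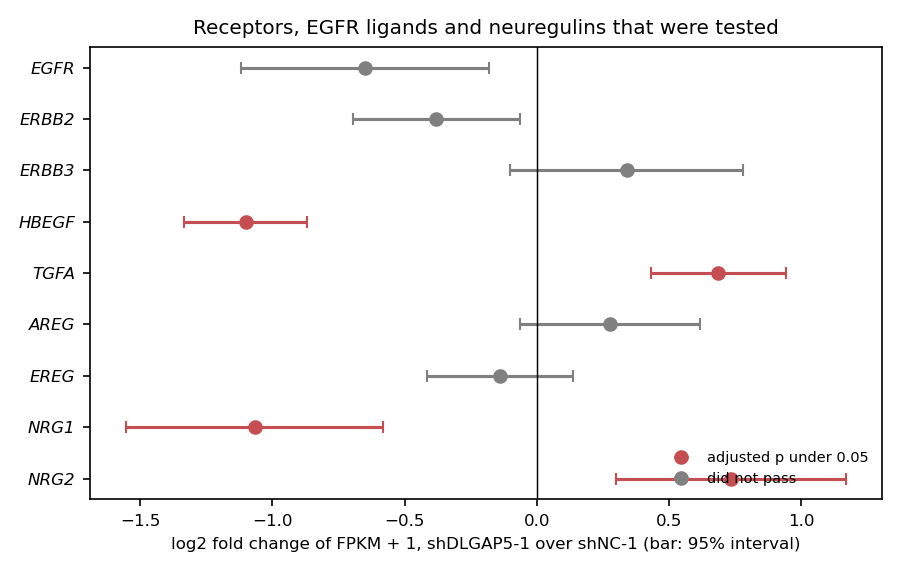
Log2 fold change of FPKM + 1, shDLGAP5-1 over shNC-1, with its 95% interval, for the 7 tested members and for NRG1 and NRG2, n = 3 libraries per group. HBEGF (−1.10) and NRG1 (−1.07) fell and TGFA (0.69) and NRG2 (0.73) rose, in red, and the receptors EGFR (−0.65), ERBB2 (−0.38) and ERBB3 (0.34) did not pass.

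Among 13 genes of ligand shedding, all tested, 3 rose and 2 fell, 38.5% against 24.8% of all genes tested. The list's median change was 0.27 against 0.03 over all genes. ADAM12 and ADAM9, metalloproteases that can cut HBEGF among other substrates, were the falls. ADAM12 was at 6.43, 6.31 and 5.49 FPKM in shNC-1, against 1.17, 1.21 and 1.67 FPKM in shDLGAP5-1, so it fell by 1.59 on the log2 scale (limma adjusted p = 0.000912). ADAM9 went from 46.4 ± 5.71 to 17.3 ± 5.73 FPKM (SD, n = 3 each; −1.42, adjusted p = 0.00646). ADAM8, a metalloprotease known from leukocytes and tumours, rose from 6.19 ± 0.299 to 13.7 ± 0.677 FPKM (1.04, adjusted p = 0.00132), and its level in shDLGAP5-1 replicate 3, 14.1 FPKM, was like that in replicate 2. RHBDF2, the rhomboid-like partner that ADAM17 needs to mature, rose by 0.55 (adjusted p = 0.00933). Its call was lost without shNC-1 replicate 2 (adjusted p = 0.0525) and with a replicate block in the fit (0.0565). ADAM15 rose by 0.34 (adjusted p = 0.0459), which was lost in each fit without 1 library (adjusted p = 0.0602 to 0.167). ADAM17, the main sheddase of TGFA, AREG and HBEGF, stood at 14.0 ± 2.60 and 17.8 ± 0.808 FPKM (0.34, adjusted p = 0.139) and ADAM10, that of EGF and BTC, at 8.31 ± 0.855 and 10.2 ± 0.996 FPKM (0.27, adjusted p = 0.156). TMED2, the most abundant gene of the list, had a log2 fold change of −0.26 (adjusted p = 0.32), which was −0.076 without shDLGAP5-1 replicate 1.

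In the adaptors and kinase cascade downstream of the receptors, 27 of 28 genes were tested. Of these 1 rose and 3 fell, 14.8% against 24.8% of all genes tested, with a median of −0.08. NRAS, a RAS GTPase, was at 38.0, 37.5 and 33.4 FPKM in shNC-1, against 22.0, 22.2 and 24.2 FPKM in shDLGAP5-1. It fell by 0.65 on the log2 scale (limma adjusted p = 0.00623) and kept its call in every fit without 1 library. PTPN11, the phosphatase SHP2 that RAS activation by EGFR needs, fell by 0.91 (adjusted p = 0.0127, and 0.0501 without shNC-1 replicate 1). RPL6, at 806 to 1075 FPKM, overlaps PTPN11 on the other strand. MAP2K1, the kinase MEK1, fell by 0.54 (adjusted p = 0.0171), which was lost without shNC-1 replicate 1 (0.0713) or replicate 3 (0.0571). MAPK3, the kinase ERK1, rose by 0.33 (adjusted p = 0.0470), lost in each fit without 1 library (adjusted p = 0.0622 to 0.168). The 23 others did not pass, among them GRB2 (−0.25), SHC1 (0.01) and HRAS, the most abundant, at −0.20 (adjusted p = 0.594), whose sign turned to 0.12 without shDLGAP5-1 replicate 3. With the length trend removed this list had 1 rise and 6 falls, and with median-ratio scaling 0 rises and 6 falls.

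**Figure D4:**
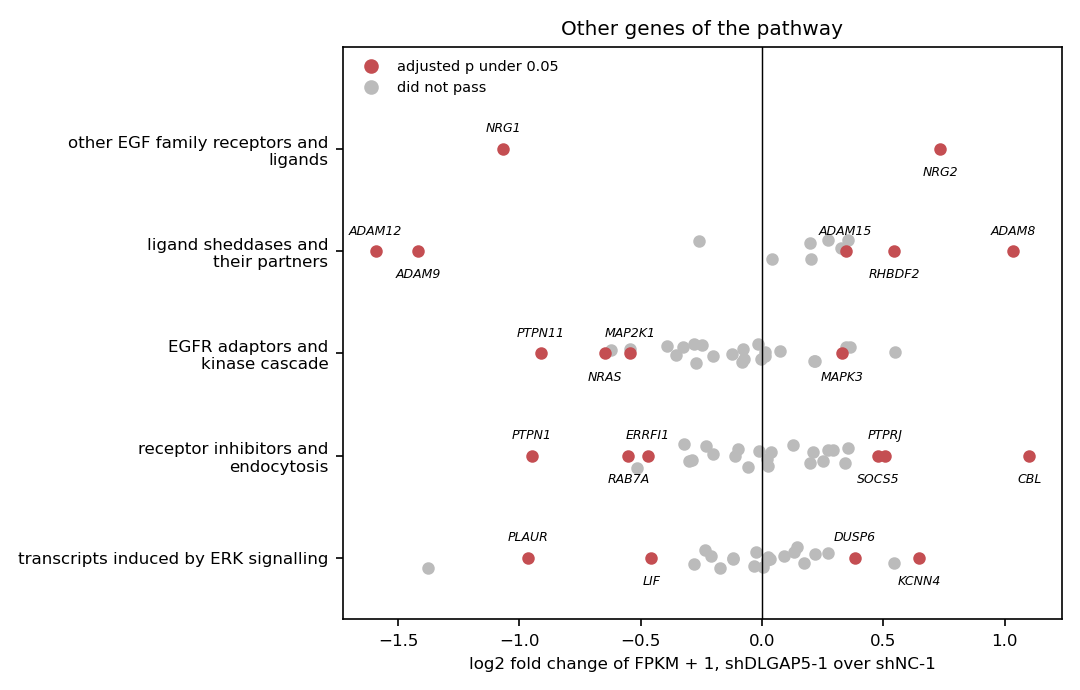
Log2 fold change of every tested gene of the 5 pathway lists, shDLGAP5-1 over shNC-1, 1 point per gene, with genes at an adjusted p under 0.05 in red and named. Rises and falls lie side by side in each list, such as ADAM8 (1.04) and ADAM12 (−1.59).

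Among inhibitors and endocytosis genes of the receptor, 27 of 28 were tested. Of these 3 rose and 3 fell, 22.2% against 24.8% of all genes tested, with a median of 0.02. Under median-ratio scaling 1 rose and 5 fell, and with columns at a common total 1 rose and 3 fell. PTPN1, a phosphatase that acts on EGFR, fell from 43.4 ± 2.07 to 22.3 ± 4.07 FPKM (SD, n = 3 each), a log2 fold change of −0.95 (limma adjusted p = 0.00558) that kept its call in every fit without 1 library. ERRFI1, the inhibitor MIG6 that binds the EGFR kinase, fell from 86.4 ± 6.84 to 62.0 ± 3.59 FPKM (−0.47, adjusted p = 0.0195). CBL, the ubiquitin ligase that sends EGFR to the lysosome, rose from 3.24 ± 0.959 to 8.17 ± 2.51 FPKM (1.10, adjusted p = 0.0210). AP002956.1 overlaps CBL on the other strand at up to 28.2 FPKM, so the CBL value is uncertain if strand was not used. SOCS5 rose by 0.48 (adjusted p = 0.0230), PTPRJ, a receptor-type phosphatase, by 0.51 (0.0482), and RAB7A, a GTPase of late endosomes, fell by 0.55 (0.0272). Each call of this list other than PTPN1 was lost without some single library. ERRFI1 was lost without shNC-1 replicate 1 (0.0770), shNC-1 replicate 2 (0.0945) or shDLGAP5-1 replicate 2 (0.0642), and CBL without shNC-1 replicate 3 (0.0582) or shDLGAP5-1 replicate 2 (0.0678). SOCS5 and RAB7A were lost without any shNC-1 library or shDLGAP5-1 replicate 2 (0.0619 to 0.0889), and PTPRJ without any library but shDLGAP5-1 replicate 1 (0.0910 to 0.131). AP2M1, an endocytic adaptor subunit and the most abundant of the list, had a log2 fold change of −0.06 (adjusted p = 0.827), which turned to 0.077 without shDLGAP5-1 replicate 1.

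Of 25 transcripts that ERK signalling induces 24 were tested, with a median of 0.01. Of these 2 rose and 2 fell, 16.7% against 24.8% of all genes tested. That balance depended on the scaling: 0 rose and 4 fell under median-ratio scaling, 0 rose and 3 fell with columns at a common total, and 1 rose and 4 fell with the length trend removed. In the 6 fits without 1 library 0 to 1 rose and 1 to 3 fell. PLAUR, the urokinase receptor, was at 60.9, 57.7 and 67.7 FPKM in shNC-1, against 30.3, 33.4 and 30.2 FPKM in shDLGAP5-1. It fell by 0.96 on the log2 scale (limma adjusted p = 0.00175) and kept its call in every fit without 1 library. LIF, a cytokine of the interleukin 6 family, fell by 0.46 (adjusted p = 0.0207), lost without any shNC-1 library (0.0597 to 0.0916). DUSP6, the phosphatase of ERK, rose by 0.38 (adjusted p = 0.0342), lost in each fit without 1 library (0.0531 to 0.127). KCNN4, a potassium channel, rose by 0.65 (adjusted p = 0.0405), lost without any library but shDLGAP5-1 replicate 2 (0.0761 to 0.122). The other 20 did not pass: SPRY4 was at −0.12, ETV4 at −0.12, ETV5 at −0.23, CCND1 at 0.03, EPHA2 at −0.03 and FOSL1, the most abundant, at 0.17 (adjusted p = 0.392), or 0.05 with median-ratio scaling and 0.05 without shNC-1 replicate 1. EGR1, an early ERK target, was at 4.44, 6.27 and 3.87 FPKM in shNC-1, against 6.32, 6.83 and 9.46 FPKM in shDLGAP5-1, so its groups did not overlap, and its log2 change of 0.55 did not pass (adjusted p = 0.0897). These 6 genes beside FOSL1 were picked for the text as well-known ERK outputs.

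Counted without repeats, 92 genes of the 5 lists were tested, of which 10 rose and 11 fell, 22.8% against the 24.8% of all genes. The balance of directions depended on the scaling. Bringing columns to the same total left 3 rises and 12 falls, median-ratio scaling 4 rises and 18 falls, and removal of the length trend 9 rises and 18 falls. Over all genes 61.6% of calls were higher as reported, 48.1% after bringing columns to a common total, 42.3% under median-ratio scaling, 49.3% after quantile normalization and 50.0% with the length trend removed. Under median-ratio scaling the median over all genes went from 0.03 to −0.07 in log2. Relative to the median of each fit HBEGF was at −1.13 as reported and −1.14 with median-ratio scaling, TGFA at 0.65 in both, and EGFR at −0.68 and −0.70. Among the 9 members median-ratio scaling gave 1 rise and 3 falls. Without shDLGAP5-1 replicate 3 the pathway lists had 4 rises and 14 falls and the members 1 rise and 2 falls.

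**Figure D5:**
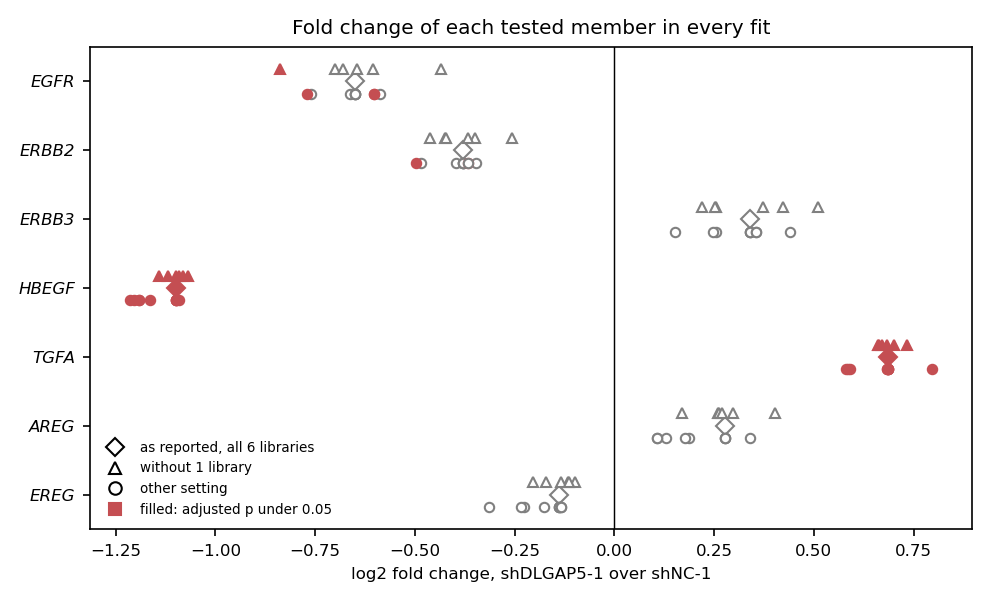
Log2 fold change of the 7 tested members in every fit, with the reported fit as a diamond, fits without 1 library as triangles and other settings as circles, filled red where the adjusted p was under 0.05. HBEGF (−1.21 to −1.07) and TGFA (0.58 to 0.80) are red in each fit, EGFR (−0.84 to −0.43) in 4 of 16 alternatives and ERBB2 (−0.50 to −0.26) in 2 of 16, and each member stays on its side of 0.

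The genes most like EGFR and HBEGF over the 6 libraries were found among 8448 other genes with a mean of at least 5 FPKM, by Pearson's r of log2(FPKM + 1). For EGFR they were NUP98, a nucleoporin, RMC1, a regulator of endosomal RAB7, and ADIPOR2, an adiponectin receptor, each with r = 0.997. NUP98 was at 27.4, 26.7 and 23.98 FPKM in shNC-1, against 14.9, 19.0 and 22.8 FPKM in shDLGAP5-1, the same order of libraries as EGFR. Its log2 fold change was −0.46 (limma adjusted p = 0.0769, and 0.0315 without shDLGAP5-1 replicate 3). For HBEGF they were TEAD4, a transcription factor partner of YAP (r = 0.999), ODC1, the first enzyme of polyamine synthesis (r = 0.999), and KPNA2, an importin alpha (r = 0.998). In log2, TEAD4 fell by 0.69 (limma adjusted p = 0.00378), ODC1 by 1.67 (0.000380) and KPNA2 by 1.13 (0.00115). All of these points share the difference between the 2 groups, and 430 genes reached r over 0.95 with EGFR and 435 with HBEGF. The named genes were chosen for that likeness in these same libraries. Their direction, library order and p-values therefore follow from the choice and are not separate results.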

How the data were processed

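RNA sequencing of T24 cells with shNC-1 or shDLGAP5-1 (3 libraries each) was analysed from 1 table deposited by the authors. Its header names no unit. The deposited values behave as FPKM (not whole, totals of 413001 to 487559, a commonest step of single-exon genes that is inverse to length). The aligner, the program that quantified genes and strand handling were not given in the sources used here. Samples were grouped by title. The columns of shDLGAP5-1 carry a construct number and were given to it as the only other group. Step sizes give an approximate depth of 13600000 to 27400000 fragments, 13600000 to 18400000 of them in the shDLGAP5-1 libraries. Only 22.9% to 35.6% of low values per library lay within 0.1 of a whole multiple of the step, so these depths are rough. Fragments were not recovered as counts, so the planned test for tables without counts was used. Of 58825 identifiers 50949 have the same GRCh38 coordinates in GENCODE release 29.

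Genes at 1 FPKM or more in at least 3 libraries (12714) entered limma 3.58.1 (R 4.3.3) as log2(FPKM + 1), with eBayes variance trend, 1 group term and a threshold of 0.05 on p after Benjamini-Hochberg adjustment; this scale understates changes of low genes. The fit was tested on simulated data. No label says that libraries are separate cultures; p-values then measure only how these samples spread, which may be technical. An exact 0 can be a failed estimate. The fit was repeated with pseudocount 0.1, unfiltered, filtered at 5 FPKM, under 3 other scalings, with a replicate block, with a robust prior and without each library in turn. Removal of a length trend (lowess, span 0.3, longest GENCODE 29 transcript), alone and with the block, was chosen after seeing the data. The members and lists were chosen with earlier results of these data known. Genes named were the members, DLGAP5, in each pathway list up to 6 with the smallest p among those that passed and the most abundant, and the 3 most like EGFR and HBEGF; other names were chosen after their values were seen. The list of fibroblast markers summed to 6.80 FPKM in shNC-1 replicate 1 and to at most 3.16 FPKM elsewhere. In shNC-1 replicate 1 COL1A2 read 1.66 FPKM (at most 0.0536 FPKM elsewhere) and DCN 1.52 FPKM (at most 0.0629 FPKM elsewhere). Endothelial markers summed to 8.46 FPKM in shDLGAP5-1 replicate 3, of which PECAM1 made up 8.45 FPKM, and to at most 0.407 FPKM elsewhere. The list of urothelial and epithelial genes summed to at least 2307 FPKM. VIM, a mesenchymal gene on that list, made up 1134 to 1629.7 FPKM per library.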

Additional observations from a re-analysis of the deposited data

How the results depend on the processing

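HBEGF and TGFA kept their direction and call in all 16 alternative fits, and no tested member changed direction. Calls over the 9 members, 2 as reported, numbered 4 with median-ratio scaling and 4 with the length trend removed (EGFR and ERBB2 added in each), and 2 to 3 without 1 library. Calls over all genes, 3155 as reported, were 2071 with no filter and 1326 to 2806 without 1 library. Calls in the pathway lists, 21 as reported, were 10 to 20 without 1 library. Both counts fell by over 1.5 times without any shNC-1 library (1326 to 1911 and 10 each) and without shDLGAP5-1 replicate 2 (1708 and 13). The log2 ratio of HBEGF to TGFA, −1.79 as reported, was −1.96 with a pseudocount of 0.1 and −1.68 with quantile normalization. Without 1 library HRAS ranged from −0.38 to 0.12 and AP2M1 from −0.23 to 0.077. Fits without 1 library also hold fewer samples; beyond that the cause was not tested. Among the tested members EGFR had the widest standard error (0.20).

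The values gave no sign that replicate numbers pair the samples. Deviations of same-numbered libraries from their group means correlated at −0.16, 0.02 and −0.16, and no library correlated best with its own number. The labels do not say whether libraries were handled in pairs, and 3 libraries per group cannot settle it. With the replicate block 1464 genes and 8 pathway genes were called, and the 2 member calls stayed the same (HBEGF adjusted p = 0.0123, TGFA 0.0425). With block and length trend removed together, 3 members were called, EGFR added (adjusted p = 0.0393).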

Other observations

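Some transcripts of the receptor system stood apart in shDLGAP5-1 replicate 3, the library with leukocyte transcripts. NRG4, a neuregulin that binds ERBB4, was at 2.26 FPKM there and at most 0.146 FPKM elsewhere, and ERBB4, its receptor, at 0.263 FPKM there and at most 0.0206 FPKM elsewhere. ELK3, an ETS factor that ERK phosphorylates, was at 71.97, 66.5 and 59.0 FPKM in the shNC-1 libraries, at 12.3 and 19.7 FPKM in shDLGAP5-1 replicates 1 and 2, and at 60.0 FPKM in shDLGAP5-1 replicate 3. Its log2 fold change of −1.38 did not pass (limma adjusted p = 0.0842). LYZ, lysozyme, was at 686 FPKM in that library and at most 21.1 FPKM elsewhere, and its part in these values was not tested. These genes were chosen after their values were seen.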
